A study of Mus musculus with 9 samples.

Results

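The Na,K-ATPase of the plasma membrane pairs a catalytic alpha subunit with a glycosylated beta subunit. Atp1b1, Atp1b2 and Atp1b3, the 3 genes described here, encode beta subunits and were chosen by name from the 53465 genes of the deposited table. All 3 had a mean of at least 0.5 FPKM (fragments scaled to gene length and library depth) over the 9 libraries, as did 17753 genes in all. Alpha subunit transcripts are not analysed here, so the altered gene of the CRS-NKAα1+/- group was not used to check the group labels.

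RNA was sequenced in bulk from freshly taken mouse ventral hippocampus, with 3 libraries in each of 3 groups. CRS-WT-DR5-12D mice carried the wild-type label and the DR5-12D label, CRS-NKAα1+/- mice kept 1 intact copy of the gene for the alpha 1 subunit, and CRS-WT mice were wild type. All 3 groups share the mark CRS, so no group without it is at hand. CRS and DR5-12D are not spelled out in the labels, which give no age, sex, strain, dose or time either. They do not say whether a library came from 1 animal or a pool, so a p-value here speaks of the spread from library to library, part of which may be technical.

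The pump moves sodium out of the cell and potassium in at the cost of ATP, and in brain it restores the gradients that neuronal firing runs down. The alpha subunit binds the ions and ATP. The beta subunit crosses the membrane a single time, is needed for alpha to fold and reach the cell surface, and adjusts how the pump binds potassium. In brain the beta 1 subunit is known above all from neurons. The beta 2 subunit was described in mouse as the adhesion molecule on glia, and the beta 3 subunit is made in many cell types.

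All 3 genes lie on the minus strand of GRCm38, where the GENCODE vM21 annotation was used. Atp1b1 (ENSMUSG00000026576) spans bases 164437109 to 164458355 of chromosome 1, with 3081 exon bases in 7 merged exons. Atp1b2 (ENSMUSG00000041329) spans bases 69599736 to 69605942 of chromosome 11, with 4085 exon bases in 5 merged exons. Atp1b3 (ENSMUSG00000032412) spans bases 96332655 to 96364442 of chromosome 9, with 2389 exon bases in 8 merged exons. Of the exon bases of Atp1b1, 18.7% also belong to exons of Nme7 on the opposite strand. Nme7 stood at 26.5 to 45.5 FPKM over the 9 libraries. No source used here states strandedness, so fragments from those shared bases cannot be told apart. The other two beta genes share 0 exon bases with other annotated genes.

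To show the start sites of the most and the least abundant beta transcripts, their sequences follow, each with 250 bases before and 50 after the start, from RefSeq on GRCm38.p6. The table of start sites held Atp1b1, with 1 start, and Atp1b3, with 2 starts, and no entry was matched to Atp1b2. Capitals mark matches on either strand to the GC box GGGCGG, the CCAAT box CCAAT, the TATA box TATANA and AGAACA, the half-site bound by the glucocorticoid receptor. No matches overlap each other.
Atp1b1, chr1:164458306-164458605, minus strand: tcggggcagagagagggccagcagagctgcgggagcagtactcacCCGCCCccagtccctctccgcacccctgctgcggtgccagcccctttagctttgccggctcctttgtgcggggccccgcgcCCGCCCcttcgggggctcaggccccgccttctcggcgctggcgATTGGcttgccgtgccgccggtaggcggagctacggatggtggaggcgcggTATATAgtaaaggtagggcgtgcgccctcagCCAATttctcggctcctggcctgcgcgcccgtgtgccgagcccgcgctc
Atp1b3, first start, chr9:96364382-96364681, minus strand: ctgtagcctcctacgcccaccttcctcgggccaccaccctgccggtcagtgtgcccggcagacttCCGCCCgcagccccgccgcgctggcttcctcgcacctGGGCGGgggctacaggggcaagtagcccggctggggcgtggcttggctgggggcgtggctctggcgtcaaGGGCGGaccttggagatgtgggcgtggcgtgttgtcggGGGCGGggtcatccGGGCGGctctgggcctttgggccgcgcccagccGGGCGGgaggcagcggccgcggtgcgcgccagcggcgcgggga
The Atp1b1 window held 2 GC boxes, 2 CCAAT boxes, 1 TATA box beginning at position −30 from the start, and 0 half-sites. The first Atp1b3 window held 6 GC boxes and 0 matches to the other 3 motifs, and its second window, not printed, held 0 matches to any of the 4. Among all 32851 windows in that table, 35.7% held a GC box, 37.4% a CCAAT box, 24.7% a TATA box and 19.0% a half-site. Both printed windows were rich in G and C, at 71% in Atp1b1 and 76% in Atp1b3, beside a median of 52.7% over all windows. These are letter matches, and no binding was measured.

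Implied library depths ran from 15117452 to 27323380 fragments. The tissue label was set against marker lists, and all 6 pan-neuronal, 6 astrocyte, 6 oligodendrocyte and 5 microglial genes were measured above the filter. Of the 6 dentate granule cell markers (Prox1, C1ql2, Dsp, Lct, Plk5 and Sipa1l2), all passed the filter, but their level divided the libraries. Their mean log2(FPKM + 1) was 0.989 to 1.16 in CRS-WT-DR5-12D replicate 1 and CRS-NKAα1+/- replicates 1 and 2, against 2.69 to 3.33 in the other 6 libraries. Those 3 libraries are called low-dentate, and differences between groups are given with and without them. In bulk tissue, fewer cells of a type and less RNA per cell cannot be told apart.

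Atp1b1 was by far the most abundant beta transcript in all 9 libraries, Atp1b2 came next and Atp1b3 was the least abundant. Atp1b1, the neuronal beta subunit, stood at 346, 463 and 443 FPKM in CRS-WT-DR5-12D, at 343, 330 and 438 FPKM in CRS-NKAα1+/- libraries, against 372, 428 and 443 FPKM in CRS-WT. The values of the 3 groups overlapped, and the 3 lowest came from the low-dentate libraries. These levels rested on 16551 to 35386 fragments per library, and the gene ranked between 47 and 78 among the 17753 tested genes.

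Atp1b2, the glial adhesion molecule, stood at 58.4, 66.6 and 72.6 FPKM in CRS-WT-DR5-12D, at 67.8, 83.4 and 76.2 FPKM in CRS-NKAα1+/- libraries, against 70.7, 60.8 and 64.1 FPKM in CRS-WT. The highest 2 libraries were both CRS-NKAα1+/-, the third CRS-NKAα1+/- library lay among the rest, and all 3 groups overlapped. Between 3755 and 8150 fragments lay behind each value.

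Atp1b3, the widely made subunit, stood at 31.3, 31.1 and 31.0 FPKM in CRS-WT-DR5-12D, at 34.9, 30.01 and 32.4 FPKM in CRS-NKAα1+/- libraries, against 36.3, 32.3 and 35.4 FPKM in CRS-WT. The CRS-WT-DR5-12D values lay close together and just below the lowest CRS-WT value, while CRS-NKAα1+/- overlapped both other groups. Fragments per library ran from 1168 to 2372. Even the least abundant beta transcript had more FPKM than at least 90.4% of the tested genes in each library.

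**Figure D1:**
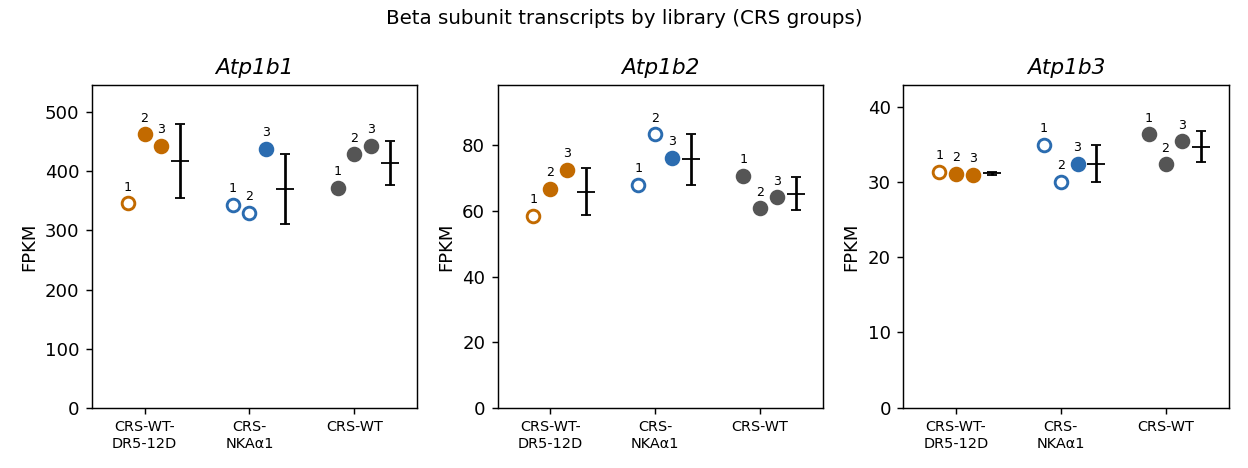
FPKM of each beta subunit gene (y axis, from 0) in the 3 libraries of each group (x axis), with replicate numbers, and the mean ± SD as bars; open points are the 3 low-dentate libraries. The open points of Atp1b1 lie between 330 and 346 FPKM, below all 6 filled ones, while those of Atp1b2 include both the lowest and the highest value, 58.4 and 83.4 FPKM, and those of Atp1b3 the lowest, 30.01 FPKM.

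The order of the levels did not depend on the group. Atp1b1 averaged 417 ± 62.6 FPKM in CRS-WT-DR5-12D, 371 ± 59.1 in CRS-NKAα1+/- libraries and 415 ± 37.3 in CRS-WT (SD, n = 3 each). Atp1b2 averaged 65.9 ± 7.11, 75.8 ± 7.77 and 65.2 ± 5.04 FPKM in the same order of groups, and Atp1b3 31.1 ± 0.199, 32.4 ± 2.44 and 34.7 ± 2.09 FPKM. The lowest Atp1b2 value, 58.4 FPKM, was above the highest Atp1b3 value, 36.3 FPKM, and the lowest Atp1b1 value was above both. Over the 9 libraries the highest value was 1.40 times the lowest for Atp1b1, 1.43 times for Atp1b2 and 1.21 times for Atp1b3. Within groups the residual SD on the log2 scale was 0.198 for Atp1b1, 0.139 for Atp1b2 and 0.0786 for Atp1b3. Among the 5081 genes with a mean of at least 10 FPKM the median was 0.129, and 75.0%, 55.1% and 17.5% of those genes had a smaller SD than Atp1b1, Atp1b2 and Atp1b3, in that order. By both measures Atp1b3 varied least, while the order of Atp1b1 and Atp1b2 depended on the measure. Over the 6 libraries other than low-dentate the SD was 7.18% of the mean for Atp1b1, 8.32% for Atp1b2 and 6.83% for Atp1b3.

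As a share of the summed beta FPKM, Atp1b1 made up 79.4% to 82.6% in CRS-WT-DR5-12D, 74.4% to 80.2% in CRS-NKAα1+/- libraries and 77.7% to 82.1% in CRS-WT. The Atp1b2 share was 11.9% to 13.4%, 13.9% to 18.8% and 11.7% to 14.7% in these groups. CRS-NKAα1+/- thus lay above CRS-WT-DR5-12D in this share and overlapped CRS-WT. In FPKM, 12.5% of all tested genes did not overlap between CRS-NKAα1+/- and CRS-WT-DR5-12D. The Atp1b3 share was 5.55% to 7.20%, 5.92% to 7.83% and 6.20% to 7.58%. The summed level was 436 to 560 FPKM in CRS-WT-DR5-12D, 444 to 547 in CRS-NKAα1+/- libraries and 479 to 542 in CRS-WT, so the groups overlapped.

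The ratio of Atp1b1 to Atp1b2 was 5.92, 6.94 and 6.11 in CRS-WT-DR5-12D and 5.06, 3.96 and 5.76 in CRS-NKAα1+/-, against 5.27, 7.05 and 6.91 in CRS-WT. CRS-NKAα1+/- overlapped CRS-WT through CRS-WT replicate 1. All CRS-NKAα1+/- ratios lay below those of CRS-WT-DR5-12D, narrowly, with 5.76 the highest against 5.92 the lowest. In FPKM, 12.5% of all tested genes did not overlap between those groups. The ratio of Atp1b2 to Atp1b3 was 1.86, 2.14 and 2.34 in CRS-WT-DR5-12D and 1.94, 2.78 and 2.35 in CRS-NKAα1+/-, against 1.95, 1.88 and 1.81 in CRS-WT. The CRS-WT ratios lay within a narrow band that the other groups reached or passed. Ratios within a library do not depend on the scaling between libraries, and no test was made on them because they are built from the chosen genes.

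**Figure D2:**
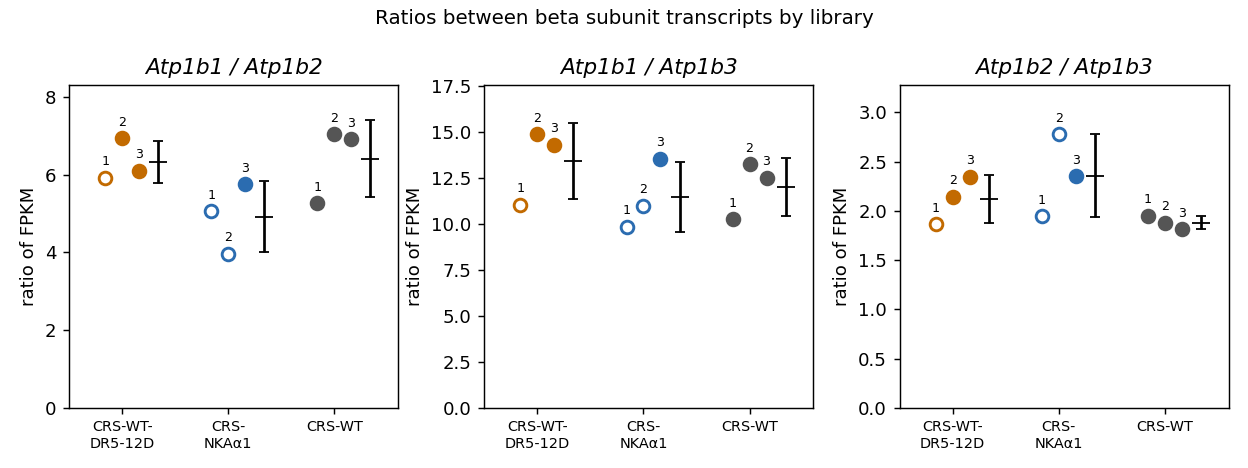
Ratios of FPKM between pairs of beta subunit genes (y axes, from 0) in each library, by group (x axis), with replicate numbers and mean ± SD; open points are the 3 low-dentate libraries. The lowest Atp1b1 to Atp1b2 ratio, 3.96, is that of CRS-NKAα1+/- replicate 2, and the CRS-WT-DR5-12D ratios lie at 5.92 to 6.94.

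Atp1b1 was lower in the low-dentate libraries, at 340 ± 8.37 FPKM (SD, n = 3), than in the other 6, at 431 ± 31.0 FPKM (SD, n = 6). The highest low-dentate value was 346 FPKM in CRS-WT-DR5-12D replicate 1, and the lowest of the other 6 was 372 FPKM in CRS-WT replicate 1, so the 2 sets did not overlap. Of all tested genes 11.6% were lower in each low-dentate library than in each of the others, and 25.1% did not overlap in either direction, so Atp1b1 shares this division with many genes. Atp1b2, at 69.9 ± 12.6 FPKM in the low-dentate libraries and 68.5 ± 5.70 in the other 6, overlapped between the sets, with low-dentate libraries at both ends of its range. Atp1b3 overlapped too, at 32.1 ± 2.52 and 33.1 ± 2.26 FPKM. The sets were formed from measured dentate markers, so no test was made between them.

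Of the 14 marker lists, 5 beside the dentate list lay apart between these sets of libraries in mean log2(FPKM + 1). The other 8, for pyramidal cells, interneurons, astrocytes, oligodendrocytes and their precursors, microglia, endothelium and red blood cells, overlapped. The mean log2(FPKM + 1) of the 6 pan-neuronal markers was 6.90 to 7.06 in the low-dentate libraries and 6.50 to 6.70 in the other 6, opposite in direction to Atp1b1. For the 3 CA1 markers it was 2.91 to 3.27 against 3.77 to 4.32, and for the 3 CA3 markers 2.89 to 3.01 against 3.17 to 3.48. The summed CA1 level, 32.1 to 51.9 against 46.0 to 60.0 FPKM, and the summed CA3 level, 30.1 to 37.9 against 36.0 to 45.7 FPKM, overlapped. The 3 ependymal markers stood at 0.350 to 0.381 against 1.55 to 2.39, with Ccdc153 and Tmem212 at 0 in at least 1 library. Of the 4 choroid plexus markers 2 passed the filter, at 0.294 to 0.533 against 0.874 to 2.18. The summed dentate marker level was 7.95 to 10.3 FPKM in the low-dentate libraries and 45.8 to 75.8 FPKM in the others, and no dentate marker was at 0. The part of these cell types in the level of Atp1b1 was not tested.

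**Figure D3:**
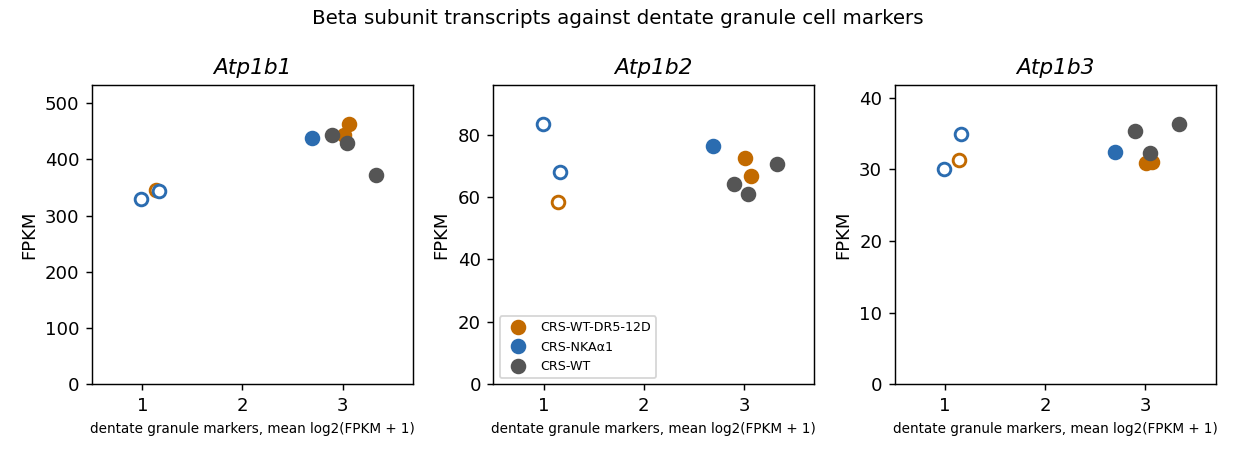
FPKM of each beta subunit gene (y axes, from 0) against the mean log2(FPKM + 1) of the 6 dentate granule cell markers (x axis) in the 9 libraries, coloured by group; open points are the 3 low-dentate libraries. The libraries form 2 clusters on the x axis, and the clusters are apart on the y axis for Atp1b1 (330 to 346 and 372 to 463 FPKM) but overlap for Atp1b2 and Atp1b3.

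The first comparison, CRS-NKAα1+/- against CRS-WT, asks whether beta subunit transcripts differ where 1 copy of the alpha 1 gene is intact. None of the 3 beta genes passed the threshold, in a comparison where 0.0225% of all tested genes did. Differences are on the log2(FPKM + 1) scale from limma with all 9 libraries in 1 fit, with adjustment over all 17753 genes. Atp1b1 averaged 371 ± 59.1 FPKM in CRS-NKAα1+/- and 415 ± 37.3 FPKM in CRS-WT (n = 3 each), a difference of −0.17 ± 0.15 (SE; 95% confidence interval −0.51 to 0.17, limma adjusted p 0.580). Without the 3 low-dentate libraries the Atp1b1 difference was 0.084 ± 0.13 (limma adjusted p 0.895), with CRS-NKAα1+/- replicate 3 alone in its group and assumed to vary like the others, and with the dentate marker mean as a covariate it was 0.13 ± 0.12 (limma adjusted p 0.802). Atp1b2 averaged 75.8 ± 7.77 FPKM in CRS-NKAα1+/- and 65.2 ± 5.04 FPKM in CRS-WT, a difference of 0.21 ± 0.11 (interval −0.035 to 0.46, limma adjusted p 0.387) that was −0.26 after rescaling to TPM, and 0.22 ± 0.11 without the low-dentate libraries. With the dentate covariate it was 0.33 ± 0.13 (interval 0.033 to 0.63, limma adjusted p 0.509), an interval above 0 that did not pass after adjustment. Atp1b3 averaged 32.4 ± 2.44 FPKM in CRS-NKAα1+/- and 34.7 ± 2.09 FPKM in CRS-WT, a difference of −0.095 ± 0.073 (interval −0.26 to 0.071, limma adjusted p 0.522), and −0.094 ± 0.089 without the low-dentate libraries. The 2 groups overlapped for each of the 3 genes, while 20.9% of all tested genes did not overlap.

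Rescaling each library to TPM moved the median of all genes in this comparison to −0.42, from 0.0091 as deposited. Atp1b1 then stood at −0.65 (limma adjusted p 0.0451) and Atp1b3 at −0.57 (0.0284), both past the threshold together with 7451 genes in all. The model Gm23935, a short RNA, takes 28.6% to 37.9% of the FPKM sum in the CRS-NKAα1+/- libraries and 4.67% to 19.3% in CRS-WT, and other genes take a smaller share of TPM where it is high. Relative to the median of all genes the TPM differences were −0.23 for Atp1b1, 0.15 for Atp1b2 and −0.15 for Atp1b3.

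The second comparison, CRS-WT-DR5-12D against CRS-WT, asks what goes with the DR5-12D label on the wild-type background. Again none of the 3 beta genes passed, where 0.0282% of all tested genes did. Atp1b1 averaged 417 ± 62.6 FPKM in CRS-WT-DR5-12D and 415 ± 37.3 FPKM in CRS-WT (n = 3 each), a difference of 0.0018 ± 0.15 (interval −0.34 to 0.35, limma adjusted p 0.996). Without the low-dentate libraries it was 0.13 ± 0.10 (limma adjusted p 0.616), and with the dentate covariate 0.14 ± 0.10 (0.561). Atp1b2 averaged 65.9 ± 7.11 FPKM in CRS-WT-DR5-12D and 65.2 ± 5.04 FPKM in CRS-WT, a difference of 0.012 ± 0.11 (interval −0.23 to 0.26, limma adjusted p 0.968), and 0.094 ± 0.086 without the low-dentate libraries and 0.067 ± 0.10 with the covariate. Atp1b3 averaged 31.1 ± 0.199 FPKM in CRS-WT-DR5-12D and 34.7 ± 2.09 FPKM in CRS-WT, a difference of −0.15 ± 0.073 (interval −0.32 to 0.016, limma adjusted p 0.423). All 3 CRS-WT-DR5-12D values of Atp1b3 lay below the 3 CRS-WT values. Of all tested genes 11.4% lay below in this way and 22.8% did not overlap in either direction, so this separation is common in the comparison. The Atp1b3 difference was −0.16 ± 0.070 without the low-dentate libraries. After rescaling to TPM, where the median of all genes was −0.33, it was −0.52 (limma adjusted p 0.0477).

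The third comparison, CRS-WT-DR5-12D against CRS-NKAα1+/-, sets the other two groups side by side and shares its samples with the comparisons above. None of the 3 beta genes passed, where 0.513% of all tested genes did. The difference was 0.17 ± 0.15 for Atp1b1 (interval −0.17 to 0.51, limma adjusted p 0.813), −0.20 ± 0.11 for Atp1b2 (interval −0.45 to 0.046, limma adjusted p 0.678) and −0.055 ± 0.073 for Atp1b3 (interval −0.22 to 0.11, limma adjusted p 0.871). Without the low-dentate libraries, with CRS-NKAα1+/- replicate 3 alone in its group, these were 0.047 ± 0.14, −0.13 ± 0.11 and −0.061 ± 0.094. With the dentate covariate Atp1b1 stood at 0.013 ± 0.10, and Atp1b2 at −0.26 ± 0.11 (interval −0.51 to −0.016, limma adjusted p 0.383), an interval below 0 that did not pass after adjustment either. All 3 genes overlapped between the groups, while 5.35% of all tested genes lay higher in each CRS-WT-DR5-12D library and 7.15% lower.

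With all 9 libraries and the deposited scaling, the ends of the 95% confidence intervals lay at 0.701-fold and 1.43-fold for Atp1b1, 0.734-fold and 1.37-fold for Atp1b2, and 0.803-fold and 1.08-fold for Atp1b3 over the 3 comparisons. With the dentate covariate the Atp1b2 interval in the first comparison reached 1.55-fold. A missed threshold does not show that the groups were alike. With voom on fragment counts recovered from the table, the other tool run, the 3 beta genes also stayed short of the threshold in each comparison. In limma as deposited 0 of the 9 differences had an unadjusted p under 0.05. The number was 2 with the dentate covariate, 3 after rescaling to TPM and 1 with quantile scaling. With 1 library left out it was 2 without CRS-NKAα1+/- replicate 1, 1 without CRS-WT replicate 2 and 1 without CRS-WT-DR5-12D replicate 3. Of all 17753 tested genes, 2504, 2314 and 1568 met that limit in the 3 comparisons as deposited. With the dentate covariate 1610, 2662 and 2116 did, under TPM 10132, 6794 and 1162, and with quantile scaling 2550, 2303 and 1624. Those refits with 1 library left out gave 1931, 2415 and 1345, then 1729, 1691 and 1412, then 2329, 2362 and 1496.

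**Figure D4:**
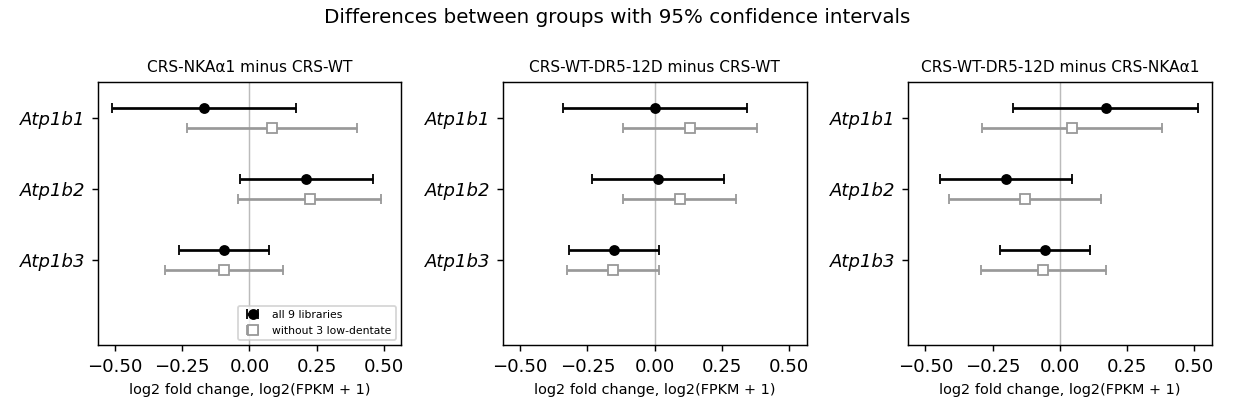
Log2 fold change on the log2(FPKM + 1) scale (x axis) of each beta subunit gene (y axis) in the 3 comparisons, with 95% confidence intervals; filled circles are all 9 libraries and open squares leave out the 3 low-dentate libraries. All plotted intervals cross 0, and the Atp1b1 difference between CRS-NKAα1+/- and CRS-WT is −0.17 with all libraries and 0.084 without the 3.

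Markers of the cell types that make the beta subunits are given by group, with no test of the lists. The 6 astrocyte markers summed to 363 to 482 FPKM in CRS-WT-DR5-12D, 508 to 582 in CRS-NKAα1+/- libraries and 508 to 594 in CRS-WT, and none was at 0. CRS-WT-DR5-12D lay below the other two groups, which overlapped. CRS-WT-DR5-12D replicate 1, the library with the lowest Atp1b2, also had the lowest mean log2 level of these markers, 4.69. The libraries other than low-dentate had 5.21 to 5.55. CRS-WT replicate 2, with the next lowest Atp1b2 at 60.8 FPKM, had 5.49, near the top of that range. The 6 oligodendrocyte markers summed to 428 to 795, 241 to 405 and 540 to 741 FPKM in the same order of groups, and the 6 pan-neuronal markers to 697 to 924, 652 to 845 and 608 to 657. The oligodendrocyte range of CRS-NKAα1+/- lay below both others, and its pan-neuronal range overlapped both. The pan-neuronal range of CRS-WT-DR5-12D, 697 to 924 FPKM, was wholly above that of CRS-WT, 608 to 657 FPKM. Single genes often separated too. Of all tested genes, 10% had CRS-NKAα1+/- wholly under CRS-WT, and 5.35% had it wholly under CRS-WT-DR5-12D. For CRS-WT-DR5-12D, 11.4% were wholly under CRS-WT, 11.4% wholly over it, and 7.15% wholly under CRS-NKAα1+/-. The part of these cell types in the beta subunit levels was not tested.

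Genes whose pattern over the 9 libraries was most like that of each beta gene were sought among 4637 named genes with a mean of at least 10 FPKM, by Pearson r of log2(FPKM + 1), as a description. The libraries share depth, scaling and the division by dentate markers, so r over the 6 libraries other than low-dentate stands beside each. Those 6 were part of the search, so this r is no separate check. For Atp1b1 the closest were Parm1, a membrane protein, at 0.984 (0.975 over the 6), Tmem70, an assembly factor of the mitochondrial ATP synthase, at 0.973 (0.947), and Clip4 at 0.968 (0.923). Next came Pls3, an actin-bundling protein, at 0.966 (0.894) and Slitrk3, a synaptic adhesion protein, at 0.960 (0.824). Parm1 shows the likeness, with 9.15, 16.1 and 15.7 FPKM in CRS-WT-DR5-12D, 8.09, 8.79 and 15.7 in CRS-NKAα1+/- libraries, against 10.8, 14.3 and 14.8 in CRS-WT.

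For Atp1b2 the closest were Psme2, a subunit of the proteasome activator, at 0.925 (0.877) and Rin1, a regulator of small GTPases, at 0.900 (0.763). Znrd1 followed at 0.868 (0.878), Pcbp1, an RNA-binding protein, at 0.859 (0.848) and Gstm1, a glutathione transferase, at 0.853 (0.820). Psme2 stood at 16.5, 19.5 and 19.7 FPKM in CRS-WT-DR5-12D, 18.0, 31.9 and 27.2 in CRS-NKAα1+/- libraries, against 21.3, 16.6 and 19.1 in CRS-WT. As with Atp1b2, its 2 highest values were CRS-NKAα1+/- replicates 2 and 3, a likeness that the search by r selects for. For Atp1b3 the closest were Rbm17, a splicing factor, at 0.914 (0.954), Supt16, a histone chaperone subunit, at 0.910 (0.859) and Rexo2, a nuclease of short RNAs, at 0.888 (0.825). After them came the transcription factor Sox2 at 0.886 (0.903) and Aggf1 at 0.862 (0.770). Over all 9 libraries the r values of the 5 closest genes to Atp1b1 were above those for Atp1b2 and Atp1b3, but over the 6 they were not, with Rbm17 at 0.954 for Atp1b3 and Slitrk3 at 0.824 for Atp1b1.

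Other genes around the pump were taken from 4 lists with 33 genes, of which 28 passed the filter of 0.5 FPKM. The first holds relatives of the subunits and partners, the FXYD proteins that tune the pump and the NKAIN proteins that bind beta 1. The others hold potassium and sodium handling, regulators of the pump, and chaperones that fold membrane and secreted proteins. In each comparison 0 of the 28 passed the threshold in limma as deposited, and 0 of the 25 that could be fitted passed in voom. Some passed after rescaling to TPM, which moved the median of all genes, as given under the dependence on the processing. At an unadjusted p under 0.05 there were 3 higher and 3 lower in CRS-NKAα1+/- against CRS-WT, 0 higher and 6 lower for CRS-WT-DR5-12D set against CRS-WT, and 1 higher and 5 lower in CRS-WT-DR5-12D against CRS-NKAα1+/-. The same limit was met by 14.1%, 13% and 8.83% of all tested genes in these comparisons. The median difference over the 28 genes was −0.015, −0.031 and −0.0093, beside 0.0091, 0.0071 and 0.0065 over all genes.

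Atp1b4, which encodes a relative of the beta subunits known from muscle nuclei, was above 0 in 1 library only, CRS-NKAα1+/- replicate 2, at 0.042 FPKM. Atp4b, the beta subunit of the gastric proton pump, was above 0 in 1 library only, CRS-WT-DR5-12D replicate 2, at 0.0349 FPKM. The choice to name these 2 came after seeing their values. Among the tested partners Fxyd1, phospholemman, stood at 14.2, 17.9 and 20.7 FPKM in CRS-WT-DR5-12D and 17.7, 19.3 and 19.9 FPKM in CRS-NKAα1+/-, against 29.8, 32.7 and 25.8 FPKM in CRS-WT. Both other groups lay below CRS-WT in all 3 libraries, with differences of −0.72 ± 0.14 (limma adjusted p 0.127) for CRS-WT-DR5-12D and −0.60 ± 0.14 (0.196) for CRS-NKAα1+/-, short of the threshold. Of all tested genes 11.4% and 10% lay below CRS-WT in this way. Without the low-dentate libraries the differences were −0.58 ± 0.12 and −0.53 ± 0.15, the latter with CRS-NKAα1+/- replicate 3 alone in its group. With the dentate covariate the differences were −0.62 ± 0.11 and −0.38 ± 0.14. They share the CRS-WT samples. Fxyd5, dysadherin, stood at 4.77, 2.80 and 3.53 FPKM in CRS-WT-DR5-12D, 7.89, 8.44 and 4.94 FPKM in CRS-NKAα1+/- libraries, against 4.01, 3.72 and 3.73 FPKM in CRS-WT. Its difference between CRS-NKAα1+/- and CRS-WT was 0.72 ± 0.20 (limma adjusted p 0.248), with the values of CRS-NKAα1+/- above those of CRS-WT in all 3 libraries, as 10.9% of all tested genes were. Both values above 7 FPKM came from low-dentate libraries. Without the low-dentate libraries the Fxyd5 difference was 0.30 ± 0.13, again with CRS-NKAα1+/- replicate 3 alone in its group. With the dentate covariate it was 0.28 ± 0.13 (limma adjusted p 0.569).

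New beta subunits fold in the endoplasmic reticulum with the help of chaperones, and the folding list, Canx, Calr, Hspa5 and Pdia3, was fully measured. Hspa5, the chaperone BiP, stood at 48.9, 45.2 and 59.6 FPKM in CRS-WT-DR5-12D, 88.1, 69.7 and 92.7 FPKM in CRS-NKAα1+/- libraries, against 91.8, 83.7 and 74.5 FPKM in CRS-WT. The CRS-WT-DR5-12D values lay below all others, by −0.69 ± 0.14 against CRS-NKAα1+/- (limma adjusted p 0.0953) and −0.70 ± 0.14 against CRS-WT (0.139). Of all tested genes 7.15% lay below CRS-NKAα1+/- in this way and 11.4% below CRS-WT. Without the low-dentate libraries the Hspa5 differences were −0.82 ± 0.19 and −0.67 ± 0.14, the first with CRS-NKAα1+/- replicate 3 alone in its group. Pdia3, a disulfide isomerase, averaged 53.6 ± 4.10 FPKM in CRS-WT-DR5-12D, 67.0 ± 2.08 in CRS-NKAα1+/- libraries and 68.1 ± 4.17 in CRS-WT. Its difference was −0.32 ± 0.077 against CRS-NKAα1+/- and −0.34 ± 0.077 against CRS-WT (limma adjusted p 0.158 and 0.155). Without the low-dentate libraries it was −0.34 ± 0.12, with the same limit, and −0.34 ± 0.092. In each of those 2 comparisons 3 of the 4 folding genes had an unadjusted p under 0.05 and lower values, as had 5.5% and 6.71% of all tested genes. The remaining gene, Canx, stood at 0.028 ± 0.063 against CRS-NKAα1+/- and at −0.13 ± 0.063 against CRS-WT. The medians over the 4 were −0.35 and −0.42. In those comparisons the differences were 0.17 and 0.0018 for Atp1b1, −0.20 and 0.012 for Atp1b2, and −0.055 and −0.15 for Atp1b3. A link between the folding genes and the beta subunits was not tested.

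**Figure D5:**
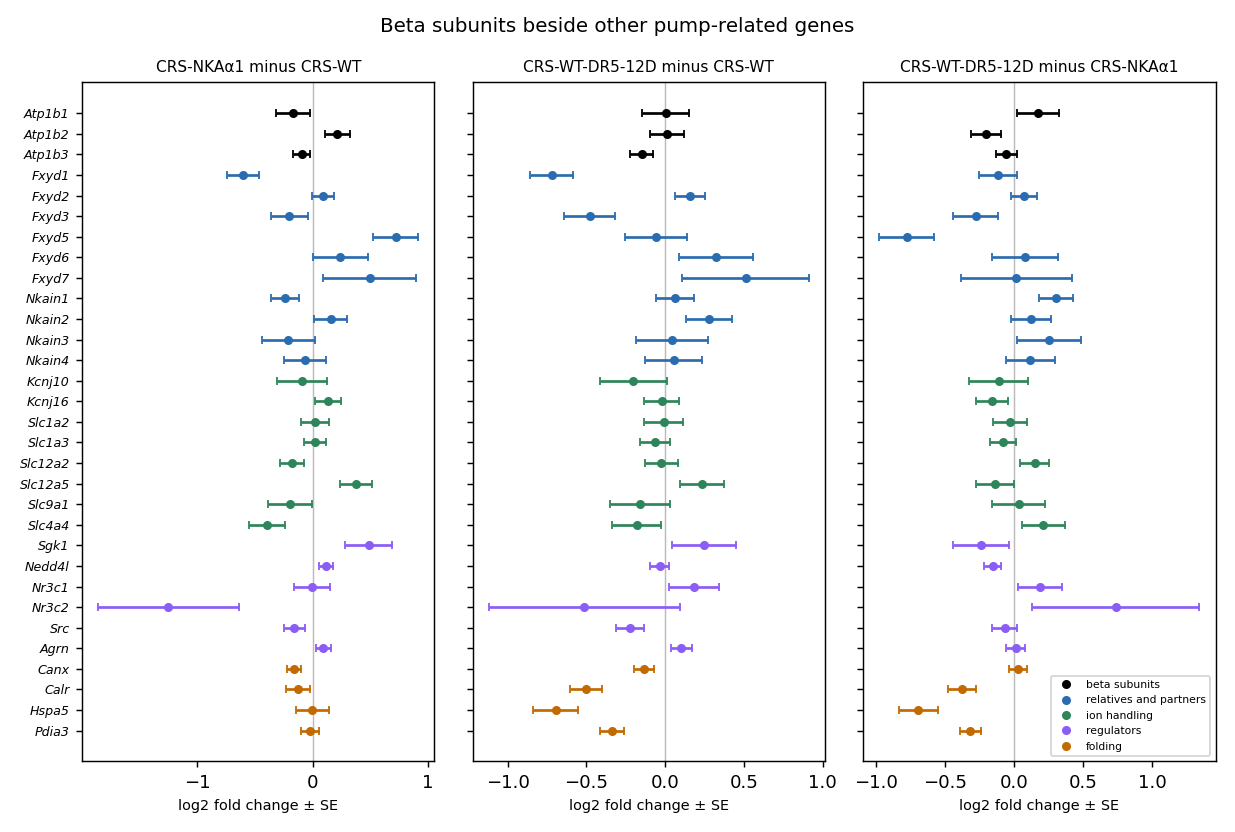
Log2 fold change ± SE on the log2(FPKM + 1) scale (x axes, which differ between panels) of the 3 beta subunit genes and the 28 tested genes of the 4 lists (y axis) in the 3 comparisons. The beta subunits lie between −0.20 and 0.21, while Fxyd1 reaches −0.72 and Hspa5 −0.70 in CRS-WT-DR5-12D against CRS-WT.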

How the data were processed

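The authors deposited 1 table of FPKM with 53465 genes and 1 column for each of the 9 libraries. Per the submitters' processing notes, cutadapt, HISAT2 and RSEM 1.2.30 were used with the build GRCm38. The sources used here do not give the annotation release, the strandedness or any filter. FPKM corrects for gene length and depth, but not for differences in RNA composition. In 16207 of the 17753 genes whose mean reached 0.5 FPKM, values were whole fragment counts (tolerance 0.02) at the merged exon length of GENCODE vM21, which gave the implied depths.

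Those 17753 genes were fitted as log2(FPKM + 1) with limma 3.58.1 in R 4.3.3, with group means and a trend of the spread. Tests were two-sided, with Benjamini-Hochberg adjustment over all genes and calls at an adjusted p under 0.05. The pseudocount of 1 hardly affects the beta subunits. Python 3.11.15 served for tables and plots, and the fit was tested on simulated data.

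Named genes are the 3 beta subunits, the 2 list genes with the smallest unadjusted p per comparison (Fxyd1, Fxyd5, Hspa5 and Pdia3) and the 5 genes most like each beta subunit. Canx was added to complete the count of the folding list. Members, lists and alternatives were chosen with earlier results of these data known. Some pump genes are not reported here.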

Additional observations from a re-analysis of the deposited data

How the results depend on the processing

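The 9 beta subunit differences were refitted under 10 other settings and with each of the 9 libraries left out, and 155 of the 171 refits kept direction and side of the threshold. Many of the refits could not turn a difference. The other filters, the fit of 2 groups and the block for replicate number keep the estimate and change only its SE and p. Leaving out a library of the group not compared does the same. Rescaling to TPM moved the median of all genes to −0.42, −0.33 and 0.10 in the first, the second and the third comparison of the report. In the first, Atp1b1 (−0.65), Atp1b2 (−0.26, turned) and Atp1b3 (−0.57) then moved with that shift. In the second, Atp1b1 (−0.37, turned), Atp1b2 (−0.36, turned) and Atp1b3 (−0.52) did, and in the third Atp1b3 turned to 0.051. Under TPM, Fxyd1 (−1.09, limma adjusted p 0.0284) and Pdia3 (−0.50, limma adjusted p 0.0308) passed the threshold in the first. Fxyd1 (−1.11, limma adjusted p 0.0407), Pdia3 (−0.71, limma adjusted p 0.0410) and Hspa5 (−1.07, limma adjusted p 0.0402) passed in the second. Quantile scaling turned Atp1b1 to −0.019 and Atp1b2 to −0.012 in the second. In the first, the dentate covariate turned Atp1b1 to 0.13, Hspa5 to 0.15 and Pdia3 to 0.00045, and leaving out the 3 low-dentate libraries turned Atp1b1 to 0.084 and Hspa5 to 0.16. The cause was not tested.

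With 1 library left out, the ranges in the first comparison were −0.30 to −0.092 for Atp1b1, 0.14 to 0.29 for Atp1b2, −0.15 to −0.042 for Atp1b3, −0.083 to 0.12 for Hspa5 and −0.072 to 0.012 for Pdia3. In the second they were −0.078 to 0.13 for Atp1b1, −0.060 to 0.094 for Atp1b2, −0.20 to −0.12 for Atp1b3 and −0.22 to 0.085 for Fxyd5. In the third they were 0.091 to 0.30 for Atp1b1, −0.28 to −0.12 for Atp1b2, −0.11 to −0.0024 for Atp1b3 and −0.24 to 0.021 for Fxyd1. None of these passed for a beta subunit (limma adjusted p 0.235 to 1).

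The number of genes called, 4, 5 and 91 in the 3 comparisons, was far less stable. It was 0, 0 and 30 with no filter on low values (with 3538, 3369 and 2448 below an unadjusted p of 0.05). Voom gave 2, 0 and 42 (2302, 2202 and 1381). The number was 3, 41 and 5 with 2 groups in the fit, and 7451, 975 and 68 under TPM. The dentate covariate gave 1, 19 and 87. Leaving out the 3 low-dentate libraries gave 6 in the second comparison. The counts of the other comparisons are not given there, since CRS-NKAα1+/- replicate 3 was then alone in its group. With 1 library left out the counts ran from 0 to 25, 0 to 21 and 1 to 194, the last with 194 without CRS-NKAα1+/- replicate 1 and 1 without CRS-WT-DR5-12D replicate 2. The labels do not say whether the replicate numbers pair the libraries. Deviations from the group mean correlated between −0.35 and 0.50 for same-numbered libraries, and between −0.72 and 0.51 for differently numbered ones. These values cannot settle pairing, because deviations within a group so small are tied to each other. With the replicate block 0, 0 and 40 genes were called (2547, 2217 and 1616 at an unadjusted p under 0.05), and no beta subunit. Counting error alone came to 0.0077 to 0.011 for Atp1b1, 0.016 to 0.024 for Atp1b2 and 0.030 to 0.042 for Atp1b3 (Poisson SD, log2), beside residual SDs of 0.198, 0.139 and 0.0786.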
